A study of Homo sapiens with 9 samples.

Results

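The transcripts described here are the expressed long intergenic noncoding RNAs with a numbered LINC symbol in U-373MG cells, a human glioblastoma and astrocytoma line. Members were selected on measured values, as symbols made of LINC and a number whose raw counts summed to at least 270 over 9 libraries. LINC01358 was added below that limit because it had been picked out for its difference between the groups. That gave 80 members, 79 of them chosen by their total, out of 874 numbered LINC symbols and 24462 symbols in all. Of the 874 symbols 405 had at least 1 read, and the members held 96.2% of the reads of all numbered LINC symbols. Cells were given NnK-1 at 200 nM for 48 h, or CBRV1-10493 at the same dose for the same time, or were left untreated as the control, with 3 libraries in each group. Both agents are synthetic peptides, per the labels, modelled on jellyfish sequences that resemble ShK, a sea anemone toxin known as a blocker of voltage-gated potassium channels. The untreated libraries served both comparisons, and all 9 came from a single cell line. Stocks under the name U-373MG have been found to share their origin with another glioblastoma line, which the labels do not address.

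Long noncoding RNAs are transcripts that are processed much like messenger RNA, often capped, spliced and polyadenylated, without a long reading frame. Some act on the gene next to them, some bind proteins or host small RNAs in their introns or exons, and many nuclear ones are short-lived because the RNA exosome removes them. A LINC number is a placeholder for an intergenic transcript, and it is replaced when a role or a product is found. In RefSeq (GRCh38.p14) all 80 members were matched, 25 of them under a newer symbol. RefSeq called 72 members long noncoding RNAs, 7 protein-coding and 1, LINC01296 (now DUXAP9), a transcribed pseudogene. The name therefore no longer describes every member, and the file's symbol is kept below with the newer symbol beside it.

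Library totals ranged from 11203094 to 13491075 reads. Levels are given as CPM, counts scaled to a common library total, with errors as SDs over 3 libraries. On a principal component plot of all genes NnK-1 replicate 2 lay apart on the first component and CBRV1-10493 replicate 1 on the second. The glioma label was checked on markers: VIM lay between 3670 and 7270 CPM, SOX2 between 390 and 485 CPM and GFAP between 19.7 and 29 CPM, whereas the mature astrocyte marker AQP4 reached at most 0.0825 CPM and ALDH1L1 was at 0. Markers of other cells were at or near 0, with PTPRC (leukocytes) at most 0.0825 CPM and CX3CR1 (microglia), CLDN5 (endothelium), EPCAM (epithelium) and OLIG2 (oligodendrocyte lineage) at 0. In bulk RNA, fewer cells with a transcript and less of it per cell cannot be told apart.

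The most abundant member, LINC00461 (now MIR9-2HG), is the host transcript of miR-9-2, a microRNA gene known for its role in neural progenitors and the developing brain. Its mature products are shown because they are what this transcript is best known for, from RefSeq on chr5 of GRCh38.p14, minus strand, with the seed, bases 2 to 8, in capitals. The first lies at chr5:88666902-88666924 and the second at chr5:88666866-88666887.
hsa-miR-9-5p: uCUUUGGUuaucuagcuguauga
hsa-miR-9-3p: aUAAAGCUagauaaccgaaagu
The arms do not share a seed. The libraries counted polyadenylated RNA and say nothing of the mature microRNAs, so the values that follow are those of the host transcript.

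Together the members made up 0.234 to 0.254% of all reads. Their summed level was 2445, 2344 and 2420 CPM in NnK-1 libraries, 2432, 2467 and 2512 CPM in CBRV1-10493 libraries and 2457, 2543 and 2485 CPM in control libraries. By library totals all 3 NnK-1 sums lay below the 3 control sums, the nearest being 2445 and 2457 CPM. The CBRV1-10493 sums overlapped the control sums. The NnK-1 separation depends on this scaling. The TMM factors used in the tests were 0.992 for NnK-1 replicate 3 and 1.01 for control replicate 1. Divided by them, the sum of NnK-1 replicate 3 would lie above that of control replicate 1, and the groups would overlap. The member reads were concentrated in few transcripts. LINC00461 took 19.9% of them, the leading 3 members 43.3% and the leading 12 members 70.5%. Of the 80 members 6 averaged at least 100 CPM, 38 at least 10 CPM and 42 less than 10 CPM, and the median member averaged 8.95 CPM.

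LINC00461 was counted at 464, 497 and 512 CPM in NnK-1 libraries, at 496, 454 and 493 CPM in CBRV1-10493 libraries and at 472, 521 and 502 CPM in control libraries. The 3 groups overlapped throughout, and with a coefficient of variation of 4.37% beyond counting noise it was the steadiest member. LINC00673, whose transcript has been reported to bind the phosphatase PTPN11 in pancreatic cells, was second at 284, 293 and 315 CPM in NnK-1 libraries, 300, 301 and 281 CPM in CBRV1-10493 libraries and 255, 320 and 295 CPM in control libraries. Here control replicate 1 was lowest and control replicate 2 highest, so the treated values lay within the control range. The log2 fold change of LINC00461 was 0.0053 (95% interval -0.18 to 0.19) for NnK-1 against control and -0.038 (-0.22 to 0.14) for CBRV1-10493 against control, which limits any difference in this transcript to a small part of its level.

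LINC00657 (now NORAD), a cytoplasmic RNA that is induced by DNA damage and binds the RNA-binding protein PUM2 through many repeated sites, came next. It was counted at 262, 242 and 255 CPM in NnK-1 libraries, 254, 300 and 319 CPM in CBRV1-10493 libraries and 301, 285 and 295 CPM in control libraries. All NnK-1 values lay below all control values, whereas CBRV1-10493 replicate 1 lay among the NnK-1 values and the other two did not. The log2 fold change for NnK-1 against control was -0.19 (-0.38 to 0.0060, adjusted p = 0.683 by edgeR's quasi-likelihood test), so the difference did not pass the test. Between the peptides it was 0.19 (-0.0049 to 0.38, adjusted p = 0.994 by the same test). Without CBRV1-10493 replicate 3 the difference between the peptides was 0.12.

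The sequence around the start of LINC00657 is shown because this was the member of high level whose NnK-1 and control libraries did not overlap. The 300 bases run from 250 before to 50 after the RefSeq start, at chr20:36050911-36051210 of GRCh38.p14 on the minus strand, with each CG dinucleotide in capitals.
LINC00657 promoter: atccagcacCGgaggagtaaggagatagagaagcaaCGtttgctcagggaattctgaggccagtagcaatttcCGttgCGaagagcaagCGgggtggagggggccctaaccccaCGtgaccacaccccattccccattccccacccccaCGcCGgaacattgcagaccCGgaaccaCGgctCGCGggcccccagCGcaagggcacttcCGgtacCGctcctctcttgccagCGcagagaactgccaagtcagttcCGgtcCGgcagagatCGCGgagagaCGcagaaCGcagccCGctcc
It holds 23 CG dinucleotides, and 35.6% of all promoters in the same RefSeq table hold at least as many. The letters TATAAA are absent from it on both strands.

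The next members by level were LINC01578 (now CHASERR), which in mice represses the neighbouring gene Chd2, and LINC00152 (now CYTOR), known for its link to growth of tumour cells. LINC01578 was counted at 154, 128 and 142 CPM in NnK-1 libraries, 131, 134 and 165 CPM in CBRV1-10493 libraries and 176, 140 and 138 CPM in control libraries. LINC00152 was counted at 97.2, 123 and 110 CPM in NnK-1 libraries, 106, 110 and 112 CPM in CBRV1-10493 libraries and 132, 104 and 113 CPM in control libraries. Control replicate 1 was highest for both of these transcripts, and the groups overlapped. LINC00152 has a near-identical copy elsewhere on its chromosome, so reads could have been split between them in the authors' counting. LINC00674 was counted at 91.3, 109 and 99.3 CPM in NnK-1 libraries, 112, 107 and 99.1 CPM in CBRV1-10493 libraries and 103, 96.8 and 101 CPM in control libraries, again with full overlap.

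Among the 12 members of highest level were also LINC00346 (now PRECSIT), a p53-regulated transcript in carcinoma cells, and LINC00888 (now SNHG33), which hosts small nucleolar RNAs. LINC00346 was counted at 33.6, 42.1 and 42.1 CPM in NnK-1 libraries, 37.3, 50.7 and 46.9 CPM in CBRV1-10493 libraries and 33.2, 43.8 and 40.7 CPM in control libraries. LINC00888 was counted at 30.7, 37.8 and 33.8 CPM in NnK-1 libraries, 34.7, 33.7 and 36.2 CPM in CBRV1-10493 libraries and 41.7, 28.7 and 34.2 CPM in control libraries. Groups overlapped for both. Across these 12 members the coefficient of variation over 9 libraries ran from 4.56 to 28.4%.

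**Figure D1:**
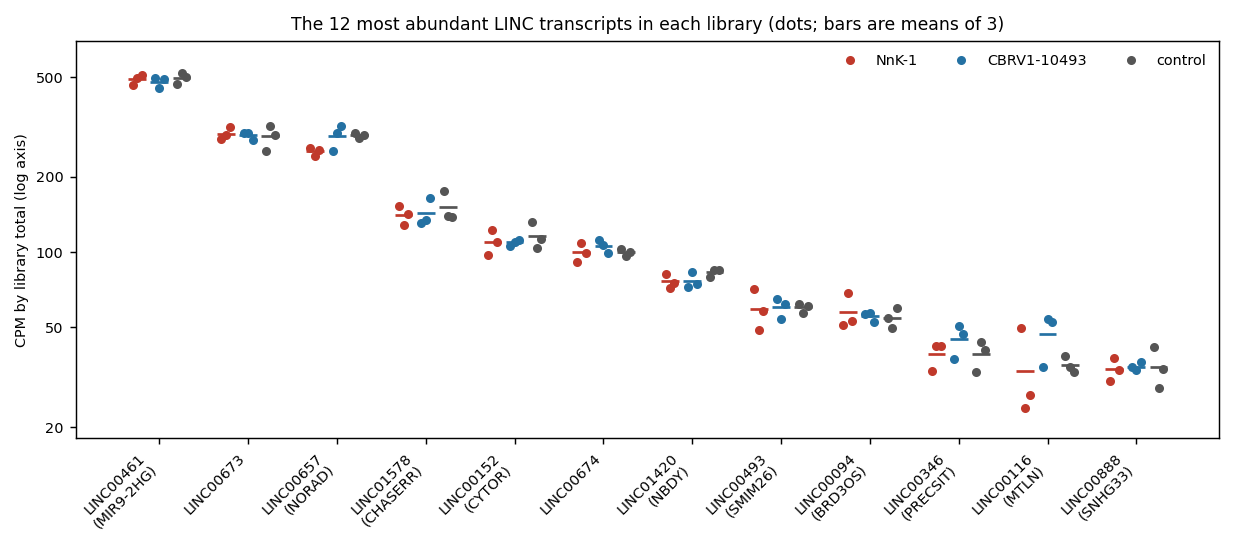
CPM by library total, on a log axis, of the 12 members with the highest mean level, with a dot for each library and a bar for the mean of 3 libraries, for NnK-1, CBRV1-10493 and control from left to right. LINC00461 lies near 490 CPM in every group, the NnK-1 dots of LINC00657 all lie under its control dots, and LINC00116 has the widest scatter of the 12.

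CPM is not divided by transcript length. Per the labels the reads come from 3′ ends, in which case CPM compares transcripts directly and division by length has no meaning, but where reads fell along the transcripts could not be checked from counts. If reads were spread over whole transcripts, levels per length would apply, so that order is given beside the first. Merged exon lengths from GENCODE v29 were found for 74 members. Per kilobase of merged exon, 8 of the 12 members highest by CPM were also among the 12 highest. By that measure LINC00674 came first at 139 CPM per kilobase, followed by LINC00461 at 79.4, LINC00493 at 54.6, LINC00657 at 52.3 and LINC01420 at 46.1 CPM per kilobase. LINC00673 was among the 6 members without a length and has no place in that order.

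Of the 7 members that RefSeq now lists as protein-coding, 6 stand for small proteins of their own or for a transcript opposite another gene, and 4 were among the 12 highest by CPM. LINC01420 (now NBDY) encodes a microprotein of the cytoplasmic P-bodies that binds the decapping scaffold EDC4. It was counted at 82.2, 72.2 and 75.0 CPM in NnK-1 libraries, 72.8, 83.2 and 74.5 CPM in CBRV1-10493 libraries and 79.5, 84.6 and 84.9 CPM in control libraries. NnK-1 and CBRV1-10493 libraries each overlapped the control ones, and the log2 fold changes were -0.092 (-0.31 to 0.13) for NnK-1 against control and -0.097 (-0.32 to 0.13) for CBRV1-10493 against control. LINC00493 (now SMIM26), a mitochondrial microprotein gene, was counted at 71.2, 48.6 and 58.0 CPM in NnK-1 libraries, 65.2, 54.0 and 62.3 CPM in CBRV1-10493 libraries and 62.3, 57.0 and 61.2 CPM in control libraries. LINC00094 (now BRD3OS), on the strand opposite BRD3, was counted at 51.1, 68.9 and 53.3 CPM in NnK-1 libraries, 56.7, 57.2 and 52.6 CPM in CBRV1-10493 libraries and 54.6, 49.6 and 59.7 CPM in control libraries. In both of these NnK-1 had the widest range, set by replicates 1 and 2.

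LINC00116 (now MTLN) encodes mitoregulin, a mitochondrial membrane microprotein linked to fatty acid oxidation. It was counted at 49.6, 23.8 and 27.0 CPM in NnK-1 libraries, 34.8, 54.2 and 52.4 CPM in CBRV1-10493 libraries and 38.5, 34.8 and 33.1 CPM in control libraries. NnK-1 replicate 1 stood with the higher CBRV1-10493 libraries and the other NnK-1 libraries below all others, so the spread within the NnK-1 group covered nearly the whole range. LINC00998 (now SMIM30), a membrane microprotein gene, was counted at 40.0, 21.0 and 29.2 CPM in NnK-1 libraries, 29.03, 31.0 and 32.9 CPM in CBRV1-10493 libraries and 36.0, 26.8 and 23.2 CPM in control libraries. LINC00961 (now SPAAR) encodes a lysosomal polypeptide that limits amino acid signalling to mTORC1, and was counted at 9.08, 8.84 and 9.40 CPM in NnK-1 libraries, 10.8, 12.5 and 8.42 CPM in CBRV1-10493 libraries and 7.72, 13.3 and 13.4 CPM in control libraries. Control replicate 1 was the lowest of its 9 values and the other control libraries the highest. LINC01279 has been merged into CCDC80, a gene for a secreted matrix protein, and its values follow with the comparisons.

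Spread was measured as the coefficient of variation over all 9 libraries beyond what counting alone gives, and it does not separate the treatments from the replicates. Its median over the members was 19.1%, and 19 members, LINC01358 among them, lay above 30%. LINC01358 led at 109% (its values are given with its counts). It was chosen for its difference between groups and lies below the count limit, so its first place reflects how it was chosen. After it came LINC01011 at 61.2%, LINC00963 at 51.6%, LINC00173 at 48.0%, LINC00339 at 45.7%, LINC01503 at 41.9%, LINC01111 at 40.0% and LINC00294 at 39.0%. LINC01011 was counted at 0.956, 3.75 and 2.14 CPM in NnK-1 libraries, 0.496, 3.44 and 4.46 CPM in CBRV1-10493 libraries and 4.06, 7.23 and 2.37 CPM in control libraries. Its highest library held 14.6 times its lowest, and replicate 1 was the lowest library in both treated groups. LINC00963 was counted at 1.59, 5.62 and 2.97 CPM in NnK-1 libraries, 1.99, 1.56 and 1.98 CPM in CBRV1-10493 libraries and 2.52, 1.19 and 4.0 CPM in control libraries. The CBRV1-10493 libraries were close together there, while NnK-1 and control each covered a wide range.

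LINC00339 was counted at 4.62, 2.14 and 2.31 CPM in NnK-1 libraries, 1.90, 4.59 and 3.63 CPM in CBRV1-10493 libraries and 4.55, 8.26 and 4.97 CPM in control libraries. LINC00342, which was named after its values were seen, had a spread of 38.4% and was counted at 11.3, 3.93 and 4.54 CPM in NnK-1 libraries, 4.05, 10.4 and 8.25 CPM in CBRV1-10493 libraries and 9.83, 12.4 and 8.75 CPM in control libraries. NnK-1 replicates 2 and 3 and CBRV1-10493 replicate 1 were the low libraries for both transcripts. Their Pearson correlation over 9 libraries was 0.94, the highest among the 3081 pairs of members chosen by total, and is given as a description of libraries that share their depth. LINC01503 was counted at 4.14, 2.41 and 3.96 CPM in NnK-1 libraries, 3.31, 5.90 and 3.30 CPM in CBRV1-10493 libraries and 2.28, 0.953 and 5.56 CPM in control libraries. LINC00294 was counted at 5.90, 1.87 and 2.31 CPM in NnK-1 libraries, 6.62, 2.46 and 5.28 CPM in CBRV1-10493 libraries and 3.82, 3.81 and 3.85 CPM in control libraries. For LINC00294 the control libraries were nearly equal and the treated libraries scattered to both sides of them, with replicate 1 highest in each treated group.

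**Figure D2:**
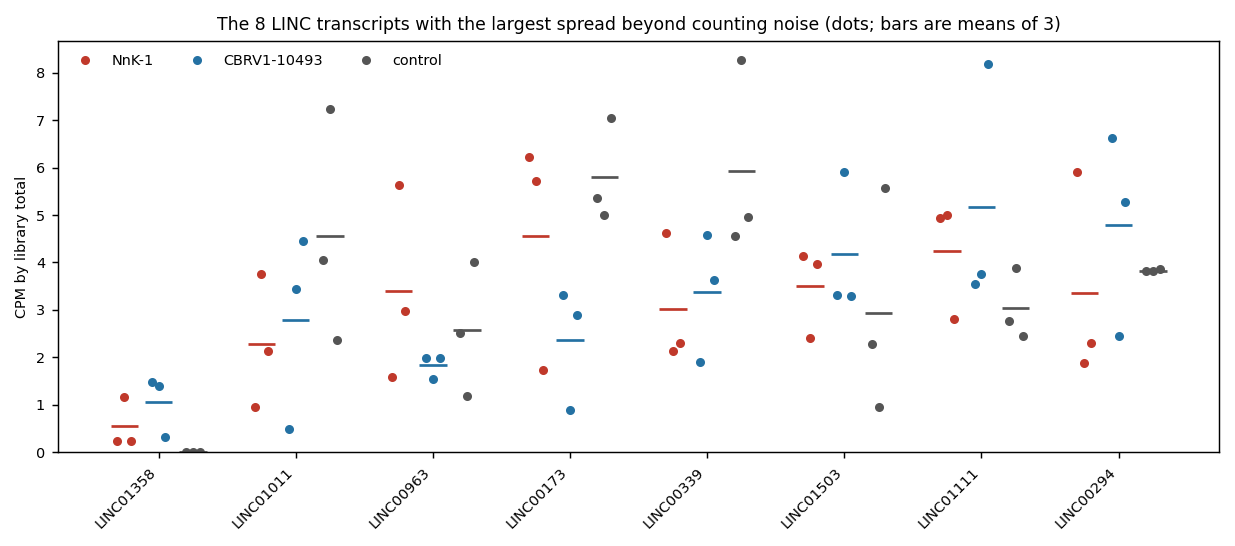
CPM by library total of the 8 members with the largest coefficient of variation beyond counting noise, with a dot for each library and a bar for the mean of 3, for NnK-1, CBRV1-10493 and control from left to right. LINC01358 is at 0 in all control libraries, and the dots of the other members overlap between groups except for LINC00173, whose 3 CBRV1-10493 dots lie under its control dots.

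Spread followed level, and the members spread about as much as other genes of the same level. Members averaging 1 to 5 CPM had a median spread of 36.2% (19 members), against 34.9% for 2366 other genes in that range. At 5 to 10 CPM it was 20.9% (22 members) against 22.0% (1488 other genes), and at 10 to 50 CPM 14.1% (29 members) against 13.6% (5031 other genes). The 6 members at 100 CPM or more had 7.61%, against 7.92% for 2146 other genes. LINC00704 (now MANCR), a transcript named for its link to mitosis, was steady for its level, with a spread of 4.5%. It was counted at 24.2, 24.1 and 21.7 CPM in NnK-1 libraries, 25.1, 22.0 and 22.0 CPM in CBRV1-10493 libraries and 21.0, 21.7 and 19.9 CPM in control libraries. All treated values lay above the highest control value, by margins within the range of a group.

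**Figure D3:**
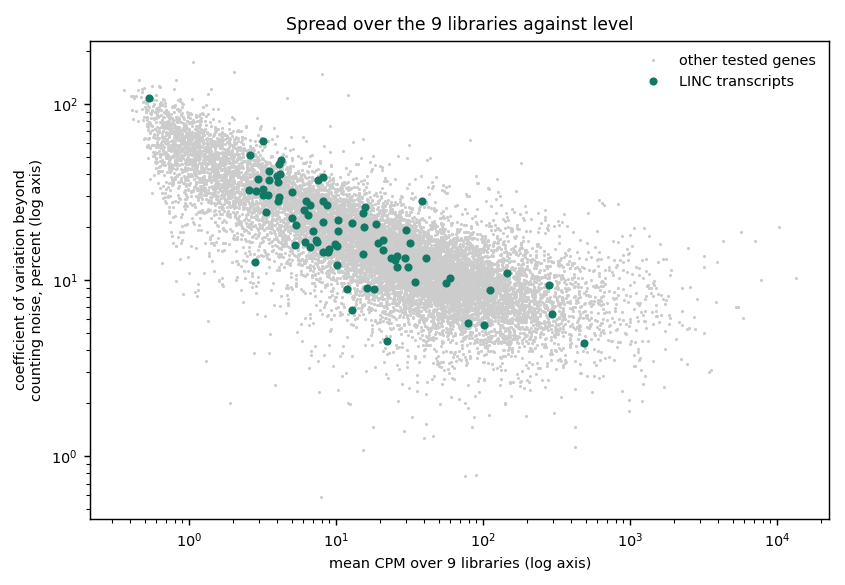
Coefficient of variation beyond counting noise over 9 libraries, in percent, against the mean level in CPM on a log axis, for the members over all other tested genes. The members follow the cloud of other genes, with median spread falling to 7.61% at 100 CPM or more.

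LINC01358 was chosen for its difference between treated and control libraries, so its values are a description and carry no test. It held 3, 13 and 3 reads in NnK-1 libraries, 18, 17 and 4 reads in CBRV1-10493 libraries and 0 in each control library. Summed over a group this made 0.530 CPM in NnK-1, 1.07 CPM in CBRV1-10493 and 0 in control, where a count of 0 allows up to 0.0781 CPM (3 counts over the group). The observed level was 6.78 times that limit in NnK-1 and 13.7 times that limit in CBRV1-10493. These ratios allow for counting error in the control count only, not in the treated counts. Within the treated groups NnK-1 replicate 2 held most of the NnK-1 reads, and CBRV1-10493 replicate 3 was close to the lower NnK-1 libraries. It passed the filter on low counts only through the libraries where it is high. The 300 bases around its RefSeq start, at chr1:59020226-59020525 of GRCh38.p14 on the plus strand, are shown for contrast with LINC00657, with CG in capitals.
LINC01358 promoter: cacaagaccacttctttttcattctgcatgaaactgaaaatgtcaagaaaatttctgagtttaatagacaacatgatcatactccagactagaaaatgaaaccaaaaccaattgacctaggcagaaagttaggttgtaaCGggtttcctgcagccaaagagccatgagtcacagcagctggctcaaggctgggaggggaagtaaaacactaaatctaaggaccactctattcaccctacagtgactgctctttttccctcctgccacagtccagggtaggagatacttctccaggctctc
It holds 1 CG dinucleotide, a number that 95.8% of all promoters reach, and no TATAAA on either strand.

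The other end of the choice was the limit of 270 reads. Just inside it were LINC01355 with 313 reads, LINC00963 with 286 and LINC01605 with 284 over 9 libraries. Just outside were LINC01530 with 253, LINC00106 with 241 and LINC01186 with 236 reads. The members at the edge averaged 2.82, 2.60 and 2.56 CPM, so the limit cut through a continuous range of levels.

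For the comparisons edgeR's quasi-likelihood test was fitted to 13676 genes in all 9 libraries, and p-values were adjusted over all of them. All 80 members passed the filter, and the counts, ranges and rankings of members that follow are over the 79 chosen by total, without LINC01358. In NnK-1 against control no member was called, and neither was any other gene. At an adjusted p under 0.05, 0% of tested genes were called higher and 0% lower. The lowest adjusted p by edgeR was 0.499 over all genes and 0.578 over the members. Log2 fold changes of the members ran from -0.96 to 0.57 with a median of -0.0026, against a median of 0.0033 over all tested genes. They were above 0 for 39 members and below 0 for 40, and 67 of 79 lay within 0.5 of 0. The interval of a typical member, which is not adjusted for the number of genes, reached 0.53 to each side. Differences up to that size could not be told from 0 at this depth and number of libraries. At an unadjusted p under 0.05 no member was higher, against a background of 3.76% of all tested genes, and 3 members were lower, or 3.80% of 79, against 3.56%. Groups did not overlap for 2 members higher in NnK-1, against 5.08% of all genes, and for 6 lower, against 7.92%.

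Of the members chosen by total, LINC00662 had the smallest p and was at 3.75, 3.21 and 3.55 CPM in NnK-1 libraries and 8.21, 5.08 and 7.34 CPM in control libraries. All 3 NnK-1 libraries lay below the lowest control library, and the log2 fold change was -0.95 (-1.60 to -0.29, adjusted p = 0.578 by edgeR). Its start region, chr19:27793891-27794190 of GRCh38.p14 on the minus strand, is shown as that of the member ranked first in this comparison, with CG in capitals.
LINC00662 promoter: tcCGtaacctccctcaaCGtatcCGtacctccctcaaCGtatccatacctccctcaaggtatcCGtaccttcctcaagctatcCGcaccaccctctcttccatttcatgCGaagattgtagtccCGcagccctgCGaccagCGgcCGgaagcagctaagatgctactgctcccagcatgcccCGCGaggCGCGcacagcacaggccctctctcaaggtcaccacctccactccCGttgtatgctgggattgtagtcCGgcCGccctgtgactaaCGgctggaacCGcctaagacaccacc
It holds 20 CG dinucleotides, a number that 41.2% of all promoters reach, and no TATAAA.

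LINC01152 was at 9.08, 4.28 and 6.93 CPM in NnK-1 libraries and 11.4, 9.21 and 11.5 CPM in control libraries, with a log2 fold change of -0.64 (-1.22 to -0.053, adjusted p = 0.660 by edgeR). NnK-1 replicate 2 was lowest, and with that library and CBRV1-10493 replicate 1 left out the value was -0.41. LINC00339, whose values are given above, had a log2 fold change of -0.94 (adjusted p = 0.660 by edgeR), between -1.37 without NnK-1 replicate 1 and -0.63 without control replicate 2. On the higher side stood LINC01279, at 0.56 (-0.061 to 1.18), and LINC01089, at 0.52 (-0.085 to 1.13), with 6.93, 11.1 and 12.9 CPM in NnK-1 libraries and 7.64, 9.05 and 5.34 CPM in control libraries. Without NnK-1 replicate 3 the value of LINC01089 was 0.33. LINC00511, a neighbour of LINC00673, was at 8.45, 7.50 and 8.49 CPM in NnK-1 libraries and 6.26, 5.24 and 6.67 CPM in control libraries, without overlap and with a log2 fold change of 0.45 (-0.098 to 1.00). The other members whose groups did not overlap were LINC00704 on the higher side and LINC00657, LINC00312, LINC01184 and LINC01399 on the lower side.

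**Figure D4:**
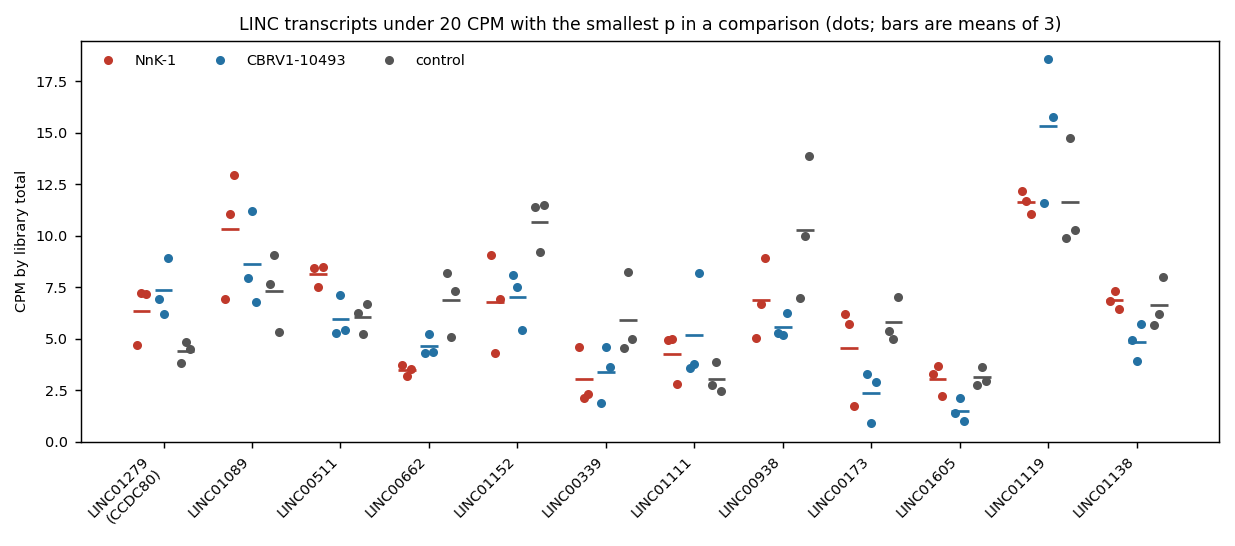
CPM by library total of members chosen by total with the smallest p in the comparisons, for NnK-1, CBRV1-10493 and control from left to right. Each library is a dot, and a bar marks the mean of 3. Only those of lower mean level are drawn, so LINC00116, for example, is left out. None passed at an adjusted p under 0.05. The 3 NnK-1 dots of LINC00662 lie under all control dots, and the 3 CBRV1-10493 dots of LINC00938 lie under all control dots.

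In CBRV1-10493 against control no member was called, and again 0% of all tested genes were called higher and 0% lower. The lowest adjusted p by edgeR was 0.99997. Members ran from -1.28 to 0.78 on the log2 scale with a median of 0.0032, against 0.0027 over all genes, 41 above 0 and 38 below. Of 79 members 66 lay within 0.5 of 0. At an unadjusted p under 0.05 there was 1 member higher, against 1.34% of all genes, and there were 4 lower, or 5.06% of 79, against 1.55%. Groups did not overlap for 3 members higher in CBRV1-10493, against 3.91% of genes, and for 5 lower, against 4.96%. The control libraries are those of the NnK-1 comparison, so a control value that is high or low enters both.

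Of the 79 members chosen by total, LINC00938 had the smallest p, with 5.29, 5.16 and 6.27 CPM in CBRV1-10493 libraries and 6.99, 10.005 and 13.9 CPM in control libraries. The treated libraries were close together and all lay below control, which itself covered a wide range. Its log2 fold change was -0.87 (-1.49 to -0.25, adjusted p = 1.00 by edgeR). The start region, chr12:45727872-45728171 of GRCh38.p14 on the minus strand, is printed for the same reason as that of LINC00662, with CG in capitals.
LINC00938 promoter: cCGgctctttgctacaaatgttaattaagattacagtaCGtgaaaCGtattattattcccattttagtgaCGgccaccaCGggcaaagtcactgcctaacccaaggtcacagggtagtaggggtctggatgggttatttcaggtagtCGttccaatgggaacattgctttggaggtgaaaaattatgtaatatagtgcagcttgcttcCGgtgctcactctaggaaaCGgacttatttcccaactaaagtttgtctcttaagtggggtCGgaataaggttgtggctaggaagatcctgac
It holds 9 CG dinucleotides, a number that 57.9% of all promoters reach, and no TATAAA.

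LINC00173 was at 3.31, 0.901 and 2.89 CPM in CBRV1-10493 libraries and 5.36, 5.0 and 7.04 CPM in control libraries, without overlap. Its log2 fold change was -1.28 (-2.27 to -0.28, adjusted p = 1.00 by edgeR), the largest in size among the 79 members chosen by total in this comparison. LINC01605 was at 1.41, 2.13 and 0.990 CPM in CBRV1-10493 libraries and 2.76, 3.65 and 2.96 CPM in control libraries, with a log2 fold change of -1.03 (-2.01 to -0.052). LINC01152 was at 7.03 ± 1.40 CPM in CBRV1-10493 and 10.7 ± 1.28 CPM in control (SD, n = 3 each), with a log2 fold change of -0.59 (-1.17 to -0.0079). On the higher side LINC01279 was at 6.95, 6.22 and 8.91 CPM in CBRV1-10493 libraries and 3.82, 4.84 and 4.52 CPM in control libraries. These did not overlap, and the log2 fold change was 0.76 (0.14 to 1.38, adjusted p = 1.00 by edgeR). CCDC80, into which RefSeq has merged this symbol, was at 288 ± 12.2 CPM in CBRV1-10493 and 262 ± 23.1 CPM in control (SD, n = 3 each), a log2 fold change of 0.15 (-0.078 to 0.38), so reads under the old symbol are a small part of that gene. LINC00116 followed at 0.42 (-0.012 to 0.86), and LINC01111 at 0.78 (-0.063 to 1.62), with 3.56, 3.77 and 8.17 CPM in CBRV1-10493 libraries and 2.76, 3.89 and 2.45 CPM in control libraries. LINC01111 rested on CBRV1-10493 replicate 3, without which its log2 fold change was 0.29. The remaining members without overlap were LINC00704 and LINC01521 on the higher side and LINC01239 on the lower side.

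**Figure D5:**
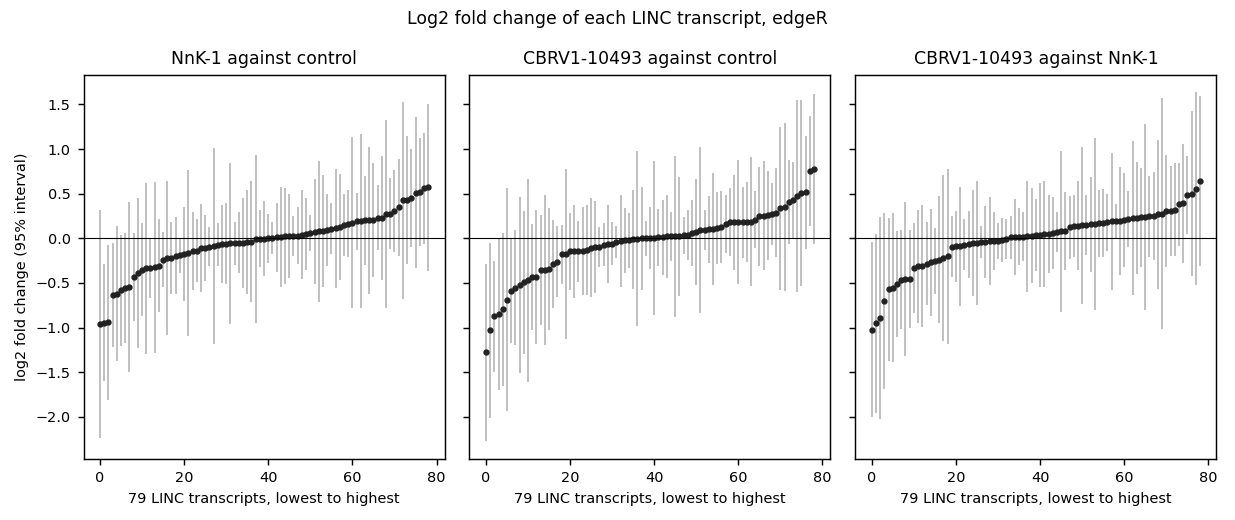
Log2 fold changes of the 79 members chosen by total for each peptide over control and for CBRV1-10493 over NnK-1, in that order. Each member is drawn with the interval of its fold change. The members center on 0, with medians of -0.0026, 0.0032 and 0.035, and none passed at an adjusted p under 0.05.

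Between the peptides, CBRV1-10493 against NnK-1, 0% of genes were called higher and 0% lower, members included, and the lowest adjusted p was 0.994. Log2 fold changes ran from -1.02 to 0.64 with a median of 0.035, against 0.0011 over all genes, 46 above 0 and 33 below, and 69 of 79 lay within 0.5 of 0. The median turned to -0.047 when NnK-1 replicate 2 and CBRV1-10493 replicate 1 were left out. At an unadjusted p under 0.05 there was 1 member higher, against 1.96% of genes, and 1 lower, against 2.35%. Groups did not overlap for 2 members higher in CBRV1-10493, against 4.71% of genes, and for 4 lower, against 4.17%. A p that misses the threshold does not show that the peptides act alike.

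LINC00116 was the higher one, at 47.1 ± 10.7 CPM in CBRV1-10493 and 33.5 ± 14.0 CPM in NnK-1 (SD, n = 3 each), with a log2 fold change of 0.49 (0.048 to 0.92, adjusted p = 0.994 by edgeR). The groups overlapped, and the value was 0.87 without NnK-1 replicate 1 and 0.30 without NnK-1 replicate 2. LINC01605 was the lower one, at 1.41, 2.13 and 0.990 CPM in CBRV1-10493 libraries and 3.27, 3.66 and 2.23 CPM in NnK-1 libraries, with a log2 fold change of -1.02 (-2.01 to -0.040). LINC00173 was at 6.22, 5.71 and 1.73 CPM in NnK-1 libraries, so NnK-1 replicate 3 lay within the CBRV1-10493 range given above. Its log2 fold change was -0.95, and -0.56 without CBRV1-10493 replicate 2. LINC01138 was at 4.96, 3.93 and 5.69 CPM in CBRV1-10493 libraries and 6.85, 7.32 and 6.43 CPM in NnK-1 libraries, a log2 fold change of -0.51 (-1.11 to 0.086) without overlap. LINC01119 was at 11.6, 18.6 and 15.8 CPM in CBRV1-10493 libraries and 12.2, 11.7 and 11.1 CPM in NnK-1 libraries, a log2 fold change of 0.38 (-0.086 to 0.85), with the lowest CBRV1-10493 library inside the NnK-1 range. Without CBRV1-10493 replicate 2 it was 0.22. LINC00312 and LINC00662 on the higher side, and LINC00641 and LINC00511 on the lower side, were the other members whose libraries did not overlap.

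Because some long noncoding RNAs act on the gene beside them, the nearest and overlapping genes of all members were read from RefSeq (GRCh38.p14). A neighbour other than a member was among the tested genes for 47 members, 59 genes in all. None was called in any comparison. At an unadjusted p under 0.05 there were 1 higher and 2 lower in NnK-1 against control, where 3.76% of all tested genes were higher and 3.56% lower. In CBRV1-10493 against control there were 0 higher and 1 lower, beside 1.34% and 1.55% of all genes. In CBRV1-10493 against NnK-1 there were 2 higher and 2 lower, beside 1.96% and 2.35%. LINC01271, described with its counts, is 1 of the lower ones in NnK-1 against control and 1 of the higher ones between the peptides. CHD2, a chromatin remodeller beside LINC01578, was at 124 ± 7.71 CPM in NnK-1, 130 ± 2.01 CPM in CBRV1-10493 and 132 ± 16.3 CPM in control (SD, n = 3 each). BRD3, a bromodomain protein gene that overlaps LINC00094, was at 194 ± 23.1 CPM in NnK-1, 191 ± 3.21 CPM in CBRV1-10493 and 187 ± 11.8 CPM in control. In both genes the groups overlapped, as they did in their LINC neighbours.

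A neighbour of low count was LINC01271, a numbered LINC transcript below the limit for members with 73 reads in all, which overlaps the member LINC01270. It held 1, 0 and 1 reads in NnK-1 libraries, 1, 9 and 10 reads in CBRV1-10493 libraries and 8, 16 and 27 reads in control libraries. The NnK-1 and control libraries did not overlap, the counts are small, and the symbol passed the filter only through the libraries where it is higher, so its values are a description. LINC01270 itself held 31, 17 and 29 reads in NnK-1 libraries, 23, 58 and 41 reads in CBRV1-10493 libraries and 37, 30 and 55 reads in control libraries, with overlap.

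The other neighbours with small p-values were protein-coding. SEC23B encodes a coat protein of vesicles that leave the endoplasmic reticulum, and lies beside LINC00493. It was at 57.5 ± 2.81 CPM in CBRV1-10493 and 41.3 ± 6.74 CPM in NnK-1 (SD, n = 3 each), a log2 fold change of 0.47 (0.19 to 0.74, adjusted p = 0.994 by edgeR), where LINC00493 was at 0.020. In NnK-1 against control SEC23B was at -0.30 (-0.58 to -0.026), with overlap. VAV2, a guanine nucleotide exchange factor near LINC00094, was at 33.9 ± 2.69 CPM in CBRV1-10493 and 42.4 ± 1.18 CPM in control, a log2 fold change of -0.31 (-0.59 to -0.022). In CBRV1-10493 against NnK-1 VAV2 was at -0.40 (-0.68 to -0.11), without overlap. ZFP62, which overlaps LINC00847, was at -0.44 (-0.87 to -0.019) in that comparison, where LINC00847 was at 0.16. HRCT1, beside LINC00961, was at 179 ± 6.16 CPM in NnK-1 and 158 ± 9.80 CPM in control, a log2 fold change of 0.20 (0.0029 to 0.41), where LINC00961 was at -0.31 (-0.83 to 0.21). Next to LINC00938, ARID2, a subunit of a SWI/SNF chromatin complex, was at 41.6 ± 5.50 CPM in CBRV1-10493 and 39.2 ± 7.66 CPM in control, a log2 fold change of 0.099 (-0.24 to 0.43). Members that lie next to each other did not share one pattern over the 9 libraries: the Pearson correlation was 0.11 for LINC00673 and LINC00511, -0.10 for LINC00706 and LINC00707 and 0.43 for LINC00526 and LINC00667. Of the 80 members 45 overlap another RefSeq gene and 35 do not. The labels do not say whether the authors counted by strand, so reads of overlapping genes may not be told apart.

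Proteins that act on such transcripts were read from 3 lists. The nuclear exosome and its adaptors, which degrade many nuclear noncoding RNAs, had 17 of 18 genes tested, and none was called in any comparison. Their median log2 fold change was -0.016 for NnK-1 against control and -0.037 for CBRV1-10493 against control, and at an unadjusted p under 0.05 there were 0 higher and 1 lower with NnK-1 (3.76% and 3.56% of all tested genes) and 0 in each direction with CBRV1-10493 (1.34% and 1.55%). ZFC3H1, which links the exosome to polyadenylated nuclear RNA, was at 26.0 ± 4.77 CPM in NnK-1 and 34.1 ± 5.16 CPM in control (SD, n = 3 each), a log2 fold change of -0.36 (-0.70 to -0.026, adjusted p = 0.666 by edgeR). ZCCHC8, a subunit of the nuclear exosome targeting complex, was at 9.32 ± 0.560 CPM in NnK-1 and 12.9 ± 0.638 CPM in control, a log2 fold change of -0.44 (-0.88 to 0.00078) without overlap. For CBRV1-10493 against control the smallest p belonged to C1D, an exosome cofactor, at -0.26 (-0.63 to 0.099), and DIS3, its catalytic subunit, at 0.17 (-0.082 to 0.41). Between the peptides, CBRV1-10493 against NnK-1, 1 was higher and 1 lower at that threshold (1.96% and 2.35% of all genes). EXOSC7, a ring subunit, was at -0.29 (-0.57 to -0.016) and ZCCHC8 at 0.46 (0.020 to 0.90), with adjusted p = 0.994 by edgeR for both.

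Of the genes of proteins that bind LINC00657, 3 were read and tested, none was called, and all log2 fold changes lay within 0.10 of 0. PUM2, a repressor of mRNAs that carry its motif, was at 79.7 ± 7.81 CPM in NnK-1, 79.7 ± 6.94 CPM in CBRV1-10493 and 79.3 ± 3.28 CPM in control (SD, n = 3 each). Its log2 fold change was 0.032 (-0.20 to 0.26) for NnK-1 against control and 0.021 (-0.21 to 0.25) for CBRV1-10493 against control, and both changed sign with a library left out. The splicing regulator RBMX was at 674 ± 53.6 CPM in NnK-1, 646 ± 55.9 CPM in CBRV1-10493 and 699 ± 125 CPM in control. KHDRBS1, an RNA-binding protein of the STAR family, was at 21.4 ± 4.27 CPM in NnK-1, 21.9 ± 4.51 CPM in CBRV1-10493 and 22.0 ± 3.36 CPM in control. In each of these genes the groups overlapped.

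The mRNA decapping genes, to whose complex the LINC01420 microprotein binds, had 16 of 16 tested and none called. At an unadjusted p under 0.05 they had 1 higher and 1 lower in NnK-1 against control (3.76% and 3.56% of all tested genes), and 0 in each direction in CBRV1-10493 against control (1.34% and 1.55%). In CBRV1-10493 against NnK-1 they had 0 higher and 1 lower (1.96% and 2.35%). LSM5, a subunit of the ring that binds deadenylated mRNA, was at 110 ± 13.3 CPM in NnK-1 and 90.1 ± 3.78 CPM in control (SD, n = 3 each), a log2 fold change of 0.31 (0.084 to 0.54, adjusted p = 0.582 by edgeR), without overlap. DCP1B, a decapping cofactor, was at 5.22 ± 1.06 CPM in NnK-1 and 8.57 ± 2.46 CPM in control, a log2 fold change of -0.69 (-1.32 to -0.061), which was -0.42 without control replicate 3. For CBRV1-10493 against control LSM5 was at 0.23 (-0.0037 to 0.46) and LSM7 at -0.25 (-0.57 to 0.075). EDC3, an enhancer of decapping, was at 13.0 ± 2.31 CPM in CBRV1-10493 and 17.98 ± 1.81 CPM in NnK-1, a log2 fold change of -0.48 (-0.89 to -0.065), and LSM4 was at -0.13 (-0.34 to 0.080).

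RefSeq promoters were at hand for 63 members, 9 of them with several starts, of which the first listed was used. The motifs counted were CG, which reads the same on both strands, and TATAAA on either strand, which do not overlap each other. The members' promoters had a median of 18 CG dinucleotides in 300 bases, against 14 over 27305 promoters, 5 over 11462 noncoding promoters and 22 over 15843 protein-coding ones. At least 10 CG were found in 57.1% of the members' promoters, against 56.0% of all. TATAAA was found in 5 of the members' promoters, or 7.94%, against 11.95% of all. These are counts of letters in a window around the annotated start, and members were chosen for being expressed, which the comparison promoters were not.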

How the data were processed

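U-373MG cells were measured in 9 libraries, 3 each for NnK-1, CBRV1-10493 and control. Per the labels the libraries were made from 500 ng of RNA with integrity numbers of at least 9, with a Lexogen QuantSeq 3′ mRNA kit, and sequenced from a single end to 75 bp. Bowtie2, bedtools and the build hg19 are named per the submitters' processing notes, and how reads were assigned to genes is not given there. Each deposited file is the authors' raw count of reads for every gene symbol in a library, without normalization. Per the labels the treated libraries are biological replicates, but separate cultures are not stated, so p-values reflect only how far these samples lie apart, which may be technical.

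Of 25737 entries per file, 286 symbols stood on several entries and were summed, which left 24462 symbols. Library totals of 11203094 to 13491075 reads set the precision, and limits from a count of 0 use 3 counts and cover counting error only. Groups came from the labels. Genes were filtered with filterByExpr, scaled by TMM and tested with the two-sided quasi-likelihood test of edgeR (4.0.16, under R 4.3.3) fitted to the 9 libraries together, with Benjamini-Hochberg adjustment over 13676 genes and a threshold of 0.05. The common biological coefficient of variation was 16.9%. Spread used CPM from library totals. The fit was tested on simulated data. Alternatives used limma 3.58.1 and DESeq2 1.42.0, other scalings and filters, a replicate block and libraries left out. In all pairs, libraries differed beyond sampling noise, and none was taken as a duplicate.

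The members and the gene lists were chosen with earlier results of these data known, and so was the rule for the genes named. It took LINC01358, the 12 members highest in CPM, the 8 with the largest spread, the 3 on each side with the smallest p in each comparison, the 3 on each side of the count limit, the members RefSeq lists as protein-coding, the neighbours of these members, and the 2 genes of each list with the smallest p. Of the neighbours, those with an unadjusted p under 0.05 and CHD2, BRD3 and ARID2 are given with values, chosen after these were seen. Among them is ZFP62, the neighbour of a member that the rule did not name. Members named for groups that did not overlap and the transcripts LINC00342, LINC00704, LINC01270 and LINC01271 were added in the same way. One gene of a list is not reported here, and the list was read without it.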

Additional observations from a re-analysis of the deposited data

How the results depend on the processing

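No member was called by an adjusted p under 0.05 in any of the 3 comparisons under the alternatives run (other scalings, other filters, DESeq2, limma-voom, the replicate block, the 6 libraries compared alone, and each library left out in turn). Over all genes, 0 were called by edgeR, against 1001, 395 and 589 at an unadjusted p under 0.05 for NnK-1 over control, CBRV1-10493 over control and CBRV1-10493 over NnK-1, and limma-voom called 0. With no filter on low counts edgeR called 74, 6 and 1 genes in that order, and DESeq2 called 3 for NnK-1 against control, and the cause was not tested. No clear pairing by replicate number was seen. Correlations of deviations ran from -0.057 to 0.13 between libraries of one number and from -0.093 to 0.097 between those of unlike numbers. With 3 libraries a group these cannot exclude a pairing. The fit with the replicate block called 0 genes in each comparison (951, 379 and 539 at an unadjusted p under 0.05), with members' medians of -0.0021, 0.0070 and 0.046. Without NnK-1 replicate 2 and CBRV1-10493 replicate 1, an alternative chosen after seeing the data, the members' median between the peptides was -0.047, against 0.035 with all libraries. PUM2 changed sign without a library, with a lowest value of -0.011 and a highest of 0.098 for NnK-1 against control and of -0.044 and 0.073 for CBRV1-10493 against control. So did RBMX for NnK-1 against control, with -0.17 and 0.064, and KHDRBS1 between the peptides, with -0.11 and 0.17. The other 606 fold changes of named genes recomputed under an alternative kept their direction. Ranked by the SD of log2(CPM + 0.5), 5 of the 8 most variable members stayed among the 8. With 3 libraries a group, the unadjusted interval of a typical member reached about 0.5 to each side on the log2 scale. Differences smaller than that cannot be told from 0 for such a member. Larger ones could also be missed after adjustment, since LINC00662 at -0.95 for NnK-1 against control was not called.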
